A study of Mus musculus with 12 samples.

Results

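The miRs described here are 10 mature miRs from 6 hairpin genes of imprinted regions other than the Dlk1-Dio3 domain, measured by miR-seq in fetal liver. They were chosen by name: both arms of miR-483 (from Igf2), of miR-675 (from H19), of miR-335 (from Mest) and of miR-296, the 5p arm of miR-298 (like miR-296, from the Gnas region), and miR-184-3p. All 10 were among the 1927 miRs in the count table, none of them sharing an entry with another miR, and all 10 belonged to the 682 miRs with a count in at least 1 library. The livers came from female fetuses at E18.5, 5 wild-type (WT) and 7 Mir483Pat-KO littermates, with 1 library per fetus. Mir483Pat-KO fetuses inherited from the father an allele lacking Mir483, made by gene targeting and Cre excision in embryonic stem cells, and their maternal copy was intact. The deletion was constitutive, so it was present in every cell of the fetus. To make the line, C57BL/6N stem cells (JM8.F6) of a pair of independent clones were injected into blastocysts. Which clone passed through the germline is not given. The line was kept on C57BL/6J, and WT littermates carry no engineered allele. The read-out does not separate the parental alleles.

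A miR hairpin is cut into a 5p and a 3p arm, either of which can be loaded into Argonaute, where bases 2 to 8 (the seed) lead it to its target mRNAs. Imprinted genes are expressed mainly from the maternal or the paternal allele, and many of them act on fetal and placental growth. Igf2, a fetal growth factor, and Mest are expressed from the paternal allele, while H19, a long non-coding RNA next to Igf2, is expressed from the maternal allele. The Gnas region holds a set of overlapping transcripts of either parental origin, and miR-296 and miR-298 are known as products of its paternal allele.

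The mature sequences, from RefSeq on GRCm38, are shown because the arm and the seed are what distinguishes these miRs. Capitals mark the seed, the prefix mmu- stands for mouse, and each sequence runs 5′ to 3′.
mmu-miR-483-3p: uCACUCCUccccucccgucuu
mmu-miR-483-5p: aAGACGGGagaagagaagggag
mmu-miR-675-3p: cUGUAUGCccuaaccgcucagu
mmu-miR-675-5p: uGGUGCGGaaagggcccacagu
mmu-miR-335-3p: uUUUUCAUuauugcuccugacc
mmu-miR-335-5p: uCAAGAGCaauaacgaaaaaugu
mmu-miR-296-3p: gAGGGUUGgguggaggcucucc
mmu-miR-296-5p: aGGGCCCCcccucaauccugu
mmu-miR-298-5p: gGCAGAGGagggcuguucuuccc
mmu-miR-184-3p: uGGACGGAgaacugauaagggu

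All 10 miRs matched a RefSeq entry by name. None of the 10 seeds occurs in another of the 1679 mature mouse miRs of the RefSeq table, of which 72.1% have a seed of their own, so no seed groups 2 of these miRs into a family. The 2 arms of miR-483 are nearly pure runs of one base class: purines make up 95.5% of miR-483-5p, more than in any other mature miR of the table, and 9.5% of miR-483-3p, a level that only 5 of the 1679 miRs (miR-483-3p included) reach or go below. The median over the table is 50%.

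Mir483 lies at chr7:142654924-142654996 on the minus strand, in an intron of Igf2. Mir675 lies at chr7:142577064-142577147 on the same strand, in an exon of H19, with 77776 bases between the hairpins. Mir335, at chr6:30741299-30741396 on the plus strand, is in an intron of Mest. Mir296 (chr2:174267047-174267125) and Mir298 (chr2:174267504-174267585) are 378 bases apart on the minus strand, in no annotated gene, and the nearest end of Nespas, an antisense transcript of the Gnas region on the same strand, is 13651 bases from Mir298. Mir184, at chr9:89802260-89802328 on the minus strand, is also in no annotated gene and lies 107579 bases from Rasgrf1, an imprinted gene.

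Library totals lay between 711810 and 1211160 counts in WT and between 658665 and 921068 in Mir483Pat-KO. Levels are given as CPM, the count relative to the TMM-scaled library total, and a level of 3 counts is 2.57 to 4.67 TMM CPM. No entry of the table is a count of 1, and the lowest value other than 0 is 2. Whether low counts were removed before deposit is not given in the sources used here, so a listed 0 may not be an absence of reads. In the text and figures, "no read" stands for a listed 0. The 4 hepatocyte marker miRs summed to 173789 to 201819 CPM in WT and 165571 to 214704 CPM in Mir483Pat-KO, so the liver label matched its markers. Of 17 marker miRs tested over 7 cell types, 0 were called by edgeR, DESeq2 or limma-voom, and 3 had an unadjusted p under 0.05 in edgeR. WT libraries carry the index numbers 37 to 41 and Mir483Pat-KO libraries 42 to 48, so genotype and index order cannot be told apart. The animal numbers fall into a lower range, with 4 fetuses of each genotype, and an upper range with WT replicate 5 and Mir483Pat-KO replicates 5, 6 and 7.

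The targeted miR was examined first. miR-483-3p, the more abundant arm, stood at 1099, 1035, 984, 996 and 1236 CPM in the 5 WT libraries. In Mir483Pat-KO its lowest, median and highest levels were 0, 20.4 and 24.97 CPM, with no read in replicates 3 and 6 and 10 to 19 reads in the other 5 libraries. Every WT library was thus far above every Mir483Pat-KO library.

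miR-483-5p was at 318, 283, 329, 268 and 299 CPM in WT. It had 4 reads in each of Mir483Pat-KO replicates 3 and 5 and none in the other 5 Mir483Pat-KO libraries. The genotypes did not overlap for either arm, and of all 388 miRs tested 2.84% did not overlap. The source of the reads that remained in Mir483Pat-KO was not tested.

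Both arms fell in Mir483Pat-KO. The log2 fold change was −6.20 for miR-483-3p (SE 0.30, adjusted p = 1.16e-10) and −7.52 for miR-483-5p (SE 0.33, adjusted p = 4.56e-11), by the quasi-likelihood F-test of edgeR with Benjamini-Hochberg adjustment over the 388 miRs tested. Of the 9 chosen miRs that passed the filter on low counts, these 2 were called at an adjusted p under 0.05. Over all 388 miRs, 2.06% were called in either direction and 1.03% in the lower direction, these 2 included. Both are arms of the deleted hairpin, so their calls were set by the design and say nothing of the other loci. miR-184-3p was too low to be tested.

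**Figure D1:**
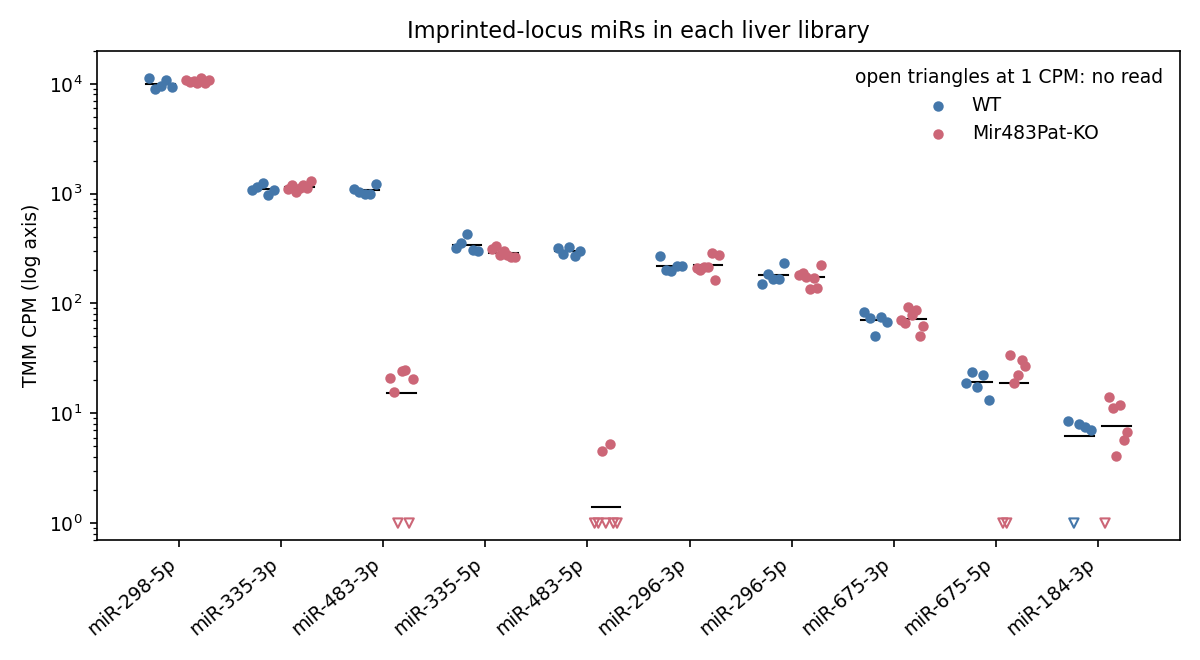
TMM CPM (log axis) of each miR in each library, with WT in blue (n = 5), Mir483Pat-KO in red (n = 7) and a black line at each group's mean; open triangles at 1 CPM mark libraries with no read. Both arms of miR-483 separate the genotypes, and the points of the other 8 miRs overlap between genotypes.

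Whether any other of the chosen loci responded to the loss of miR-483 was asked of the 7 other miRs that passed the filter. None was called by the edgeR quasi-likelihood test, and none by DESeq2 or limma-voom, which called 16 and 10 of the 388 miRs. At an unadjusted p under 0.05, 1 of the 7 passed in edgeR (miR-335-5p), and 17.5% of all 388 miRs did. None of the 7 had genotypes that did not overlap. Fitted values were below 0 for 2 of the 7 and above 0 for 5, with a median log2 fold change of 0.024 against 0.0028 over all 388 miRs. All 7 lay within 0.25 of 0 on the log2 scale, as did 284 of the 388 miRs.

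**Figure D2:**
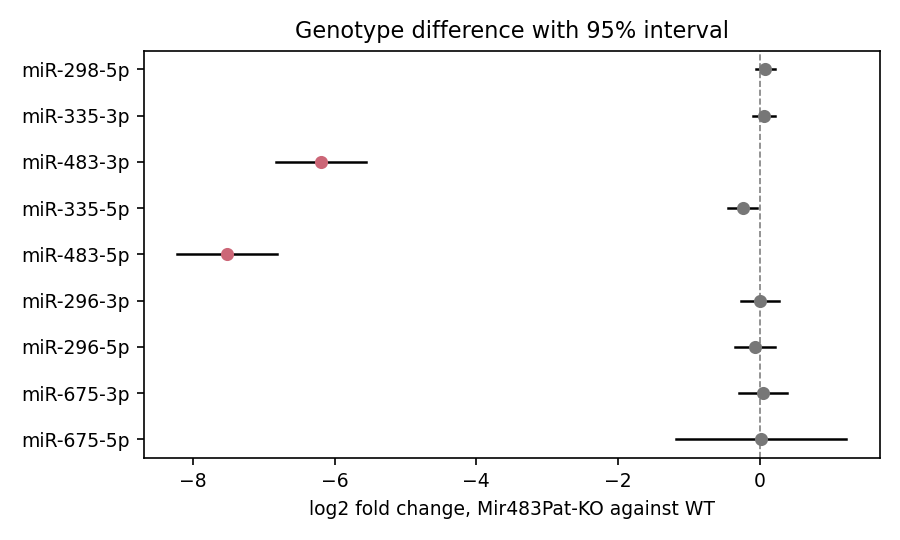
Log2 fold change of Mir483Pat-KO against WT for the 9 miRs tested, from the edgeR fit, with bars for the 95% interval; red points passed an adjusted p under 0.05 and grey points did not. The arms of miR-483 lie at −6.20 and −7.52. Of the other 7 intervals, 6 include 0, and that of miR-335-5p lies just below 0, from −0.44 to −0.035.

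miR-298-5p, from the Gnas region, was the most abundant of these miRs and ranked 21 among all miRs by mean level in WT. Its WT libraries held 11323, 8971, 9559, 10892 and 9276 CPM. In Mir483Pat-KO the lowest, median and highest were 10127, 10560 and 11339 CPM, so 3 WT libraries were below all Mir483Pat-KO libraries and the other two were among them. The log2 fold change was 0.084 (SE 0.063, 95% interval −0.051 to 0.22, edgeR adjusted p = 0.554 after Benjamini-Hochberg). On the log2 scale this interval is the narrowest of the 9, and as folds it runs from 0.965 to 1.16.

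miR-335-3p, from Mest, had 1087, 1141, 1248, 966 and 1071 CPM in WT. In Mir483Pat-KO it ranged from 1031 to 1291 CPM, with a median of 1129 CPM. The ranges overlapped over most of their length, and the log2 fold change was 0.060 (SE 0.073, 95% interval −0.095 to 0.22, edgeR adjusted p = 0.748 after Benjamini-Hochberg).

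The other arm, miR-335-5p, had 320, 354, 432, 309.7 and 299 CPM in WT. Its lowest, median and highest levels in Mir483Pat-KO were 265, 279 and 333 CPM. Replicates 3, 5, 6 and 7 of Mir483Pat-KO lay below every WT library, and the other 3 lay among them. The log2 fold change was −0.24 (SE 0.096, 95% interval −0.44 to −0.035, unadjusted p = 0.0243), and it did not pass the edgeR test after Benjamini-Hochberg adjustment (adjusted p = 0.191). Once the fit held the index number as a covariate, the value was 0.044, on the other side of 0, with a larger SE (0.17). Index numbers do not overlap between genotypes, so this fit cannot separate the 2.

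The arms of miR-296, from the Gnas region, were nearly equal. miR-296-3p had 271, 202, 196, 220.0 and 218 CPM in WT and 163, 213 and 285 CPM as lowest, median and highest in Mir483Pat-KO. miR-296-5p had 152, 186, 168, 166 and 232 CPM in WT and 136, 173 and 225 CPM in Mir483Pat-KO. For both arms the range of one genotype covered most of the other. The log2 fold changes were 0.010 (SE 0.13, 95% interval −0.26 to 0.28) for the 3p arm and −0.063 (SE 0.13, 95% interval −0.34 to 0.22) for the 5p arm. Their adjusted p-values were 0.988 and 0.859 by edgeR with Benjamini-Hochberg adjustment.

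miR-675-3p, from the H19 RNA next to Igf2, had 83.2, 74.1, 51.0, 75.8 and 67.4 CPM in WT. In Mir483Pat-KO it had 50.9, 70.2 and 92.1 CPM as lowest, median and highest, a range that held all the WT values. The log2 fold change was 0.042 (SE 0.16, 95% interval −0.30 to 0.38, edgeR adjusted p = 0.922 after Benjamini-Hochberg).

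miR-675-5p was low, at 18.9, 23.7, 17.4, 22.4 and 13.1 CPM in WT, on 13 to 23 reads. In Mir483Pat-KO the median was 22.3 CPM and the highest level 33.7 CPM, and replicates 1 and 2 had no read. From the level of miR-675-5p over the other libraries and their depths, 16.5 and 14.7 reads were predicted for these 2 libraries. Among entries of other miRs with a prediction of 10 to 20 reads, 31 of 685 (4.53%) were at 0. The log2 fold change was 0.024 (SE 0.57, 95% interval −1.18 to 1.23, edgeR adjusted p = 0.991 after Benjamini-Hochberg). Its interval as folds, from 0.442 to 2.34, is the widest of the 9 on the log2 scale. Without Mir483Pat-KO replicate 1 or replicate 2 the SE was 0.45 or 0.46.

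miR-184-3p was close to the floor of 3 counts, with 8.58, 0, 8.05, 7.48 and 7.04 CPM in WT and 0, 6.79 and 14.01 CPM as lowest, median and highest in Mir483Pat-KO. Its counts ran from 3 to 10 in the 10 libraries with a read, and the genotypes overlapped. The 2 means, 6.23 ± 3.53 CPM (SD, n = 5) and 7.65 ± 4.95 CPM (SD, n = 7), did not differ beyond the spread of the libraries (exact permutation test, two-sided, p = 0.592).

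Levels were next compared between loci, as the sum of both arms of a hairpin. In such a comparison the ligation steps of the library and the sequence of each miR can bear on the count, so the order is one of reads and not of molecules. In WT the order from high to low was miR-298 (10010 ± 1041 CPM), miR-335 (1446 ± 153), miR-483 (1370 ± 108), miR-296 (402 ± 34.5), miR-675 (89.4 ± 14.4) and miR-184 (6.23 ± 3.53), each a mean ± SD of 5 libraries. miR-298 alone took 0.939% to 1.11% of the counts of a library.

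Ratios of 6 pairs of loci were tested, with two-sided exact sign-flip permutation tests on the log2 ratios and Benjamini-Hochberg adjustment over the 6. miR-298 exceeded miR-335 in 12 of 12 libraries, on average 7.18-fold (log2 ratio 2.84 ± 0.17, SD). miR-335 exceeded miR-296 3.63-fold (log2 1.86 ± 0.21), miR-296 exceeded miR-675 4.44-fold (log2 2.15 ± 0.31), and miR-675 exceeded miR-184 16.9-fold (log2 4.08 ± 1.63, with 0.5 CPM added to both), each in 12 of 12 libraries. The size of the ratio to miR-184 depends on the added 0.5 CPM, because miR-184-3p was at 0 in WT replicate 2 and Mir483Pat-KO replicate 1. Over the libraries its log2 value ran from 2.22 to 7.62. For these 4 ratios the exact permutation p was 0.000488, the smallest that 12 libraries allow (adjusted p = 0.000732). All 6 pairs were taken from the order of the WT means in these same data. Their p-values are thus no independent support for that order.

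Ratios with miR-483 were taken in WT libraries alone, and 5 libraries are too few for the sign-flip test to pass 0.05. miR-335 and miR-483 did not differ beyond their spread (log2 ratio 0.075 ± 0.20, miR-335 higher in 3 of 5 libraries, exact permutation p = 0.375). miR-483 exceeded miR-296 in 5 of 5 libraries, 3.41-fold (log2 1.77 ± 0.051), with the smallest exact permutation p that 5 libraries allow, 0.0625 (adjusted p = 0.075).

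The neighbours within a domain differed widely. In WT, miR-483 stood 15.5-fold above miR-675 (12.9-fold to 19.2-fold over the 5 libraries, log2 ratio 3.95 ± 0.28). Their host genes, Igf2 and H19, share an imprinting control region. In Mir483Pat-KO, the summed miR-483 level of 0 to 30.2 CPM was below the summed miR-675 level of 67.0 to 126 CPM in every library. The Gnas region hairpins Mir298 and Mir296 differed 26.1-fold (20.6-fold to 33.9-fold over the 12 libraries), with 378 bases between the hairpins. These 2 ratios are given as descriptions, with no test.

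The arm from which the reads came differed between hairpins. Summed over libraries, 5 of the 6 loci had more reads on the 3p arm (miR-296 in every library but WT replicate 5), and miR-298 had more on the 5p arm. Of these 6 more abundant arms, 3 start with U (miR-483-3p, miR-335-3p and miR-184-3p), as do 40.9% of the mature miRs in the table. miR-298 was nearly one-sided, with 99.94% ± 0.035 of its reads on the 5p arm in WT (SD, n = 5) and 99.96% ± 0.053 in Mir483Pat-KO (SD, n = 7), and at most 12 reads of miR-298-3p in a library. No read of miR-184-5p was counted, so all 71 reads of miR-184 were of the 3p arm.

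In WT, the 5p arm of miR-483 held 22.5%, 21.5%, 25.1%, 21.2% and 19.5% of the reads of the hairpin. The pooled WT share was 21.7% (1439 of 6621 reads, exact 95% Clopper-Pearson interval 20.7% to 22.7%). Of the 85 miR-483 reads of all 7 Mir483Pat-KO libraries, 8 were of the 5p arm (9.41%, interval 4.15% to 17.7%). These 8 reads were 4 each in replicates 3 and 5. By library the share was 100% in replicate 3, 17.4% in replicate 5 and 0% in replicates 1, 2, 4 and 7. Replicate 6 had no miR-483 read. The pooled share thus joins fetuses from 0% to 100%, comes from at most 23 reads a library and was not tested. Such intervals hold for counting error alone, because PCR copies of a molecule are not independent.

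The 5p arm of miR-675 held 16.3% to 25.5% in WT (21.5% ± 3.93, SD, n = 5) and 0% to 37.5% in Mir483Pat-KO (19.2% ± 14.5, SD, n = 7). Both libraries at 0%, Mir483Pat-KO replicates 1 and 2, had 50 and 43 reads of the 3p arm. Replicates 3 to 7 of Mir483Pat-KO had 26.8%, 19.4%, 20.2%, 37.5% and 30.3%. The Mir483Pat-KO mean thus depends on these listed zeros, and no test without both was run. The 5p arm of miR-296 held 44.9% ± 5.92 in WT (SD, n = 5) and 43.7% ± 4.01 in Mir483Pat-KO (SD, n = 7). Neither share differed between genotypes beyond its spread (two-sided exact permutation test, p = 0.746 for miR-675 and p = 0.672 for miR-296, both 0.921 after Benjamini-Hochberg adjustment over 94 hairpins). The 94 are those with both arms tested and with reads in every library.

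**Figure D3:**
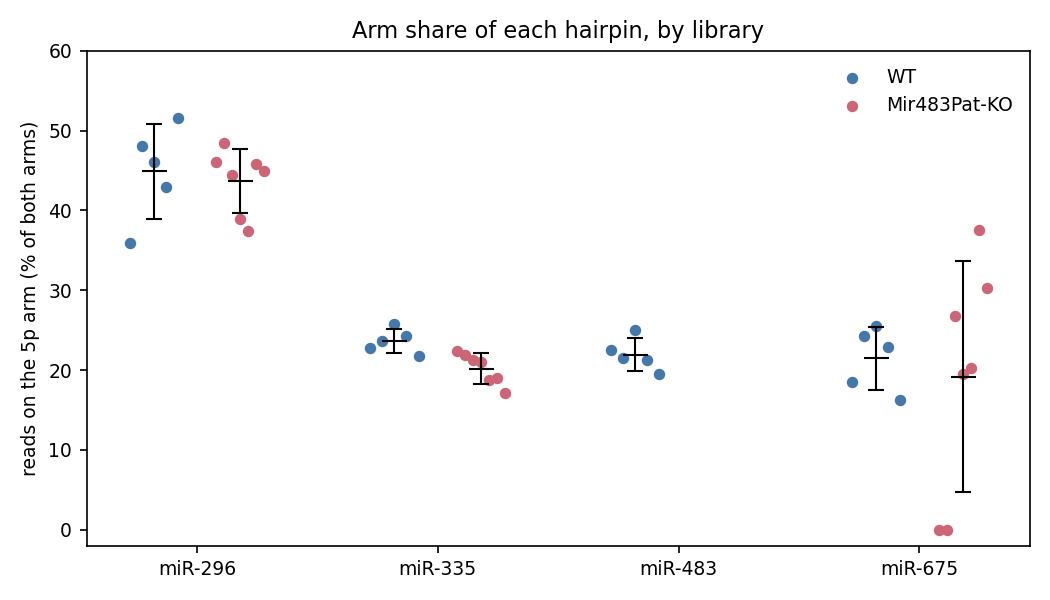
Share of each hairpin's reads on the 5p arm (% of both arms) in each library, WT in blue (n = 5) and Mir483Pat-KO in red (n = 7), with black bars for the mean and SD; miR-483 is shown in WT alone. miR-296 is near an even split, the other 3 hairpins lie near 20% in WT, and 2 Mir483Pat-KO libraries have no miR-675-5p read.

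Of the 3 hairpins whose arm shares were tested, miR-335 had the lowest p. Its 5p share in the 5 WT libraries was 22.7%, 23.7%, 25.7%, 24.3% and 21.8%. In Mir483Pat-KO it was 17.1% at the lowest, 21.1% at the median and 22.3% at the highest. Among the Mir483Pat-KO libraries, 5 of 7 were below every WT library, and the other two were just above WT replicate 5.

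The mean miR-335 5p share was 23.6% ± 1.49 in WT (SD, n = 5) and 20.2% ± 1.95 in Mir483Pat-KO (SD, n = 7), a difference of −3.45 percentage points (two-sided exact permutation test, p = 0.0101). It did not pass Benjamini-Hochberg adjustment over the 94 hairpins (adjusted p = 0.136). Of the 94 hairpins, 0% were called at an adjusted p under 0.05, 20.2% were under 0.05 unadjusted, and 3.19% had genotypes that did not overlap. miR-335, whose genotypes overlapped, ranked 7 by its p.

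The share was also examined by animal-number range and along the index numbers of the libraries. In the lower animal-number range, 4 WT libraries had 22.7% to 25.7% and 4 Mir483Pat-KO libraries 21.1% to 22.3%, without overlap (difference −2.46 points). In that range 10.6% of the 94 hairpins did not overlap, and the exact permutation p of 0.0286, the smallest that 4 against 4 allows, was 0.269 after Benjamini-Hochberg adjustment over the hairpins. In the upper range WT replicate 5 had 21.8% and the 3 Mir483Pat-KO libraries 17.1% to 18.98%. With permutation within the ranges the exact p was 0.00357 (adjusted p = 0.0839 over the 94 hairpins). This is the smallest p that the 280 splits within the ranges allow, and other hairpins reached it as well. Per step of the index number, the share changed by −0.128 points within WT and by −0.862 points within Mir483Pat-KO, and in a linear fit that also held the index number the genotypes differed by 0.56 points, a value with no test. Genotype and index order cannot be told apart here. Within each genotype the upper range also holds the last index numbers (41 in WT, 46 to 48 in Mir483Pat-KO). Range and index order can thus not be separated either.

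**Figure D4:**
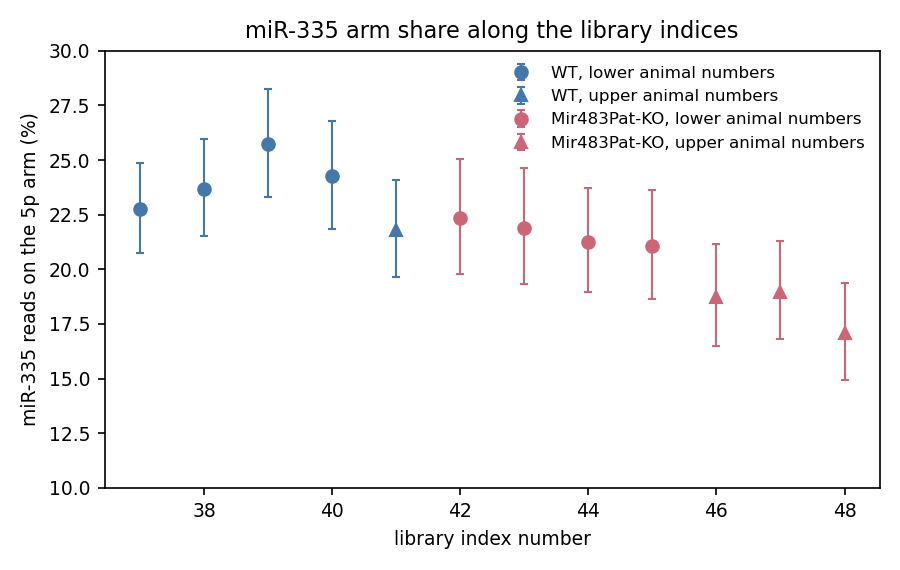
Share of miR-335 reads on the 5p arm (%) against library index number, WT in blue and Mir483Pat-KO in red, circles for the lower and triangles for the upper animal-number range; bars are exact 95% binomial intervals (counting error only). The vertical axis starts at 10%. The highest share is 25.7% (WT, index 39) and the lowest 17.1% (Mir483Pat-KO, index 48).

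Whether the arms of a hairpin moved together from fetus to fetus was examined over the 12 libraries, after centring the log2 CPM within each genotype. Pearson's r was 0.44 for miR-335 (permutation p = 0.207, rho 0.43 with p = 0.22), 0.31 for miR-296 (permutation p = 0.354, rho 0.19 with p = 0.582) and 0.11 for miR-675 (permutation p = 0.783, rho 0.24 with p = 0.481). None of the 3 passed the threshold (adjusted permutation p = 0.531, 0.531 and 0.783 for r, and 0.582 for each rho). Without the 2 libraries farthest from the median, r was 0.0017, 0.12 and 0.047. Among 387 miRs ordered by r with the more abundant arm, the partner arm ranked 28 for miR-335, 53 for miR-296 and 145 for miR-675, given as a description.

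By the same measure over the 12 libraries, the miR most like miR-298-5p was miR-22-3p (r = 0.80, rho = 0.72). For miR-335-3p it was miR-455-3p (r = 0.795, rho = 0.643), for miR-296-3p miR-140-3p (r = 0.783, rho = 0.755) and for miR-675-3p miR-221-3p (r = 0.826, rho = 0.636). Each is the highest of 387 correlations over 12 libraries that share a scaling, and is given as a description.

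Other imprinted miRs give the scale of these values. Of the 75 miRs tested from the Dlk1-Dio3 domain, which are expressed from the maternal allele, 3 were called by edgeR, all of them higher in Mir483Pat-KO (against 1.03% of all 388 miRs called higher), with a median log2 fold change of 0.105 (interquartile range −0.035 to 0.22). DESeq2 called 4 of the 75 and limma-voom 3, all higher in Mir483Pat-KO. At an unadjusted p under 0.05 in edgeR, 18 were higher and 1 lower, and 17.5% of all 388 miRs passed. No miR of the domain was called with the index number, in the lower animal-number range, or without WT replicate 2 or WT replicate 3. With the replicate block 1 was called. Of 8 miRs tested from the intron of Sfmbt2, a paternally expressed gene, 0 were called by edgeR, DESeq2 or limma-voom, 0 had an unadjusted p under 0.05 in edgeR, and the median was −0.070. The interquartile range over all 388 miRs was −0.135 to 0.144.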

How the data were processed

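Mature miRs were read from livers of 5 WT and 7 Mir483Pat-KO female fetuses at E18.5. The authors extracted total RNA (miRNeasy) and prepared TruSeq Small RNA libraries for a NovaSeq6000, with alignment and counting by miRge 3.0. The deposited values are whole-number counts per mature miR, neither normalized nor pooled. The miR reference and adapter trimming are not given in the sources used here. Groups came from the sample labels, and replicates are separate fetuses.

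All listed miRs were filtered with filterByExpr (minimum count 10, total 15), scaled by TMM and tested for genotype, with no other term, by the legacy quasi-likelihood F-test of edgeR 4.0.16 (R 4.3.3). p-values were adjusted by Benjamini-Hochberg over 388 miRs, and SEs and 95% intervals were derived from F. The text names the 10 miRs, the arms opposite to them, the miR most like each more abundant arm by correlation, and miRs that share a seed. Members, lists and tests were chosen with earlier results of these data known. Arm shares and levels were compared by exact permutation (scipy 1.17.1), and correlations with 100000 permutations. Libraries held 658665 to 1211160 counts, and floors of 3 counts cover counting error only.

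Alternatives were RLE, library size alone, TMM without miR-483, at least 10 counts in every library, no filter, edgeR 4 quasi-likelihood, DESeq2 1.42.0, limma-voom (limma 3.58.1), replicate block, animal-number range, index number, the lower range alone and leaving out each fetus. The index covariate for arm shares was chosen after seeing the data. Code was tested on simulated data. Sequences are from RefSeq, positions from GENCODE M21 on GRCm38, the build in the submitters' processing notes.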

Additional observations from a re-analysis of the deposited data

Results flagged for a closer look

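Among 29 groups of values examined for a sample far from the others, 1 was singled out: miR-184-3p in WT replicate 2, at 0 CPM, while the other 4 WT libraries were at 7.04 to 8.58 CPM. Chance gives such a gap in about 1 in 20 groups.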

How the results depend on the processing

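Both arms of miR-483 were called in every fit that gave a value (log2 fold change −7.46 to −6.00 for miR-483-3p and −7.93 to −7.06 for miR-483-5p, or −6.38 to −5.94 and −8.21 to −7.28 leaving out 1 fetus), and neither passed a filter of at least 10 counts in every library. Of the 10 miRs chosen by name, no other was called in any fit. The number of miRs called, 8, was 14 with library size alone, 16 with DESeq2, 3 with the replicate block, 5 with the animal-number range, 3 with the index number, 2 in the lower range and 3 to 12 leaving out 1 fetus (3 without WT replicate 3). The replicate numbers did not pair the fetuses: same-numbered deviations correlated at −0.236 to 0.228, 1 of 5 best with its own number. The cause of these differences was not tested.

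Uncalled values changed sign, most of them near 0. For miR-675-5p they were −0.042 with library size alone, −0.018 with no filter, −0.016 with DESeq2 and −0.14 with the animal-number range. Farther from 0 were −0.73 with limma-voom, −0.67 with the replicate block, −0.57 in the lower range and −1.67 with the index number. The SEs of these last values were wide, at 0.71, 0.80, 0.78 and 1.25. For miR-296-3p they were −0.0042 with RLE, −0.052 with library size alone, −0.0098 with TMM without miR-483, −0.012 with no filter, −0.014 with at least 10 counts, −0.00029 with edgeR 4, −0.0026 with DESeq2, −0.010 with limma-voom, −0.020 with the animal-number range, −0.064 with the index number and −0.095 in the lower range. miR-335-3p was at −0.0087 with library size alone, −0.022 with the index number and −0.016 in the lower range, miR-335-5p at 0.044 with the index number, miR-675-3p at −0.020 with library size alone and miR-296-5p at 0.0018 in the lower range. Leaving out 1 fetus gave −0.074 to 0.12 for miR-675-3p, −0.19 to 0.22 for miR-675-5p, −0.14 to 0.044 for miR-296-5p and −0.059 to 0.097 for miR-296-3p.

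With the index number the genotype difference in 5p share was 0.56 points for miR-335 and −26.5 for miR-675. In the lower range it was 1.2 points for miR-296 and −11.2 for miR-675. Leaving out 1 fetus gave −3.91 to −2.93 points for miR-335, −3.43 to 0.48 for miR-296 and −5.32 to 0.93 for miR-675, and the correlation of the arms was 0.068 (without WT replicate 3) to 0.67 for miR-335, 0.072 (without Mir483Pat-KO replicate 6) to 0.54 for miR-296 and −0.040 (without Mir483Pat-KO replicate 3) to 0.38 for miR-675. On the more abundant arms alone the log2 ratios were 3.20 for miR-298 to miR-335, 2.28 for miR-483 to miR-296, 1.64 for miR-296 to miR-675 and 2.36 for miR-335 to miR-296. miR-675-5p and miR-184-3p rest on at most 30 and 10 reads a library.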

Other observations

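When the seed is cut to bases 2 to 7, 6 of the 10 imprinted-locus miRs still share it with no other RefSeq mature miR, against 47.5% of all mature miRs. The other 4 share it with miR-3110-3p (miR-483-3p), miR-7646-5p (miR-335-5p), miR-6986-3p (miR-335-3p) and miR-5621-3p (miR-296-5p), none of which had a read in these libraries. These 4 were named after their values were seen.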
